A study of Mus musculus with 1 sample.

Results

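The genes described here are 38 genes of S phase and DNA replication, out of 25661 genes in the deposited count table, which holds 1 library of single cells sorted from mouse bone marrow. They were taken as a named list, and all 38 were found in the table. No measured value was part of the rule for the list, but it was chosen with earlier results of these data known. They fall into 10 genes of the replicative helicase and its loading, 10 of the replication fork, 3 of nucleotide supply, 5 of chromatin and histone supply, 4 regulators, 4 of DNA repair and 2 others.

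By the labels, cKit+Lin- progenitors and GMP-MoPs were sorted from 1 mouse injected with LPS (lipopolysaccharide, from the outer membrane of bacteria and a strong activator of innate immunity) and from 1 naive mouse, which also gave cMoPs. Cells were stained with barcoded streptavidin tags, pooled, captured in microwells (BD Rhapsody) and amplified by TAS-Seq, a method for 3' whole-transcriptome libraries. The tags A965 and A963 were loaded with 15000 cells each, and A961, A962 and A964 with 100 cells each. Which population or mouse carried which tag is not given in the sources used here, so tags are compared by name, no tag is given a treatment, and no strain or age is known. No tag had a replicate, so no test between tags was possible. Intervals are exact 95% intervals of counting error, and they are too narrow wherever several counts came from 1 molecule.

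Replication starts when the MCM helicase is loaded on DNA in G1 by Cdc6 and its partners, and is switched on in S phase when Cdc45 and the GINS complex join it. Polymerases then copy DNA behind the helicase on the sliding clamp PCNA, fed by ribonucleotide reductase and thymidylate synthase. Transcription of most of these genes is driven by E2F factors as a cell passes from G1 into S phase, and marrow progenitors divide often before their late descendants leave the cycle.

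Promoters of 4 MCM genes are shown first because these are the members' windows with more than 1 E2F-type sequence. RefSeq windows (GRCm38.p6) of 300 bases, from 250 before to 50 after a transcription start, were found for 29 of the 38 genes, 33 windows in all. They were searched on both strands for TTTCGCGC, TTTGGCGC, TTTCCCGC and TTTGCCGC, which share bases and can overlap each other. A match was found in 12 member windows (36.4%), against 744 of 32851 windows of all genes (2.26%) and 18 of 60 windows of other replication genes. Windows of G2/M genes held a match in 1 of 21 cases (4.76%), and windows of genes in the count table in 593 of 18386 (3.23%). At least 2 matches were found in 4 member windows (12.1%), 32 windows of all genes (0.0974%), 30 of genes in the count table (0.163%) and 2 of other replication genes (3.33%). The 4 windows with at least 2 matches belonged to Mcm3 (chr1:20820263-20820562, minus strand), Mcm5 (chr8:75109259-75109558, plus strand), Mcm6 (chr1:128359656-128359955, minus strand) and Mcm7 (chr5:138171834-138172133, minus strand). They are printed 5′ to 3′ along the gene, and capitals mark the matches.
Mcm3: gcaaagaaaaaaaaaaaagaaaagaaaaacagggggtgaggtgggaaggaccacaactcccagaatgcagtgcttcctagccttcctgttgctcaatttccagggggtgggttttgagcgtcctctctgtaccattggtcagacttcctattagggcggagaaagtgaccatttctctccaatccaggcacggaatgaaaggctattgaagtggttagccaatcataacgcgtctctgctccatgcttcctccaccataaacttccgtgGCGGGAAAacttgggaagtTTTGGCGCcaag
Mcm5: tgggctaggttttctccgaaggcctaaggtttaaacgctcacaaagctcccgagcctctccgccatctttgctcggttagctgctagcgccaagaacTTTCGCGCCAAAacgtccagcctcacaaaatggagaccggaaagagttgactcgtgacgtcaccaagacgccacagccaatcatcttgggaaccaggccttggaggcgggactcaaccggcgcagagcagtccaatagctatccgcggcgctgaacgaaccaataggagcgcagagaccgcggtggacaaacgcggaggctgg
Mcm6: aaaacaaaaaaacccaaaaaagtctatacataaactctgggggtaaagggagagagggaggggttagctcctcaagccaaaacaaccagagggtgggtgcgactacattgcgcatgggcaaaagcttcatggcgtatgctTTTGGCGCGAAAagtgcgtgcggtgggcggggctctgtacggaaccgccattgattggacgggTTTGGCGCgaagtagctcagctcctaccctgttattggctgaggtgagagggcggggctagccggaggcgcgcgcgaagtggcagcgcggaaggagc
Mcm7: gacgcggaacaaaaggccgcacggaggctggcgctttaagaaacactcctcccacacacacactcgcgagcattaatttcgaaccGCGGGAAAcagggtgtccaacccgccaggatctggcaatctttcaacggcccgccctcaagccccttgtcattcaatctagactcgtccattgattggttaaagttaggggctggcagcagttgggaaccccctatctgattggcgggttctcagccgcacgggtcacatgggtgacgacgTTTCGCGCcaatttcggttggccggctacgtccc
In Mcm5 and in the upstream site of Mcm6, a pair of matches on opposite strands overlapped in a single 12-base run. For Cdc6, Clspn, Dtl, Hells, Pola1, Pold3, Ubr7 and Uhrf1, 1 window each held 1 match. The window of Mcm2 and a further window each of Mcm7 and Uhrf1 held none, and Mcm4 is not among the 29 genes. A match is a description of letters, and no binding was measured.

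After a filter on cells, 10528 cells carried a single tag, with 5567 in A965, 4716 in A963, 68 in A961, 104 in A962 and 73 in A964. Median counts per cell were 27205 in A965 and 20430.5 in A963, and lay between 25826.5 and 27801 in the small tags. Xist, which is expressed from the inactive X of female cells, stood at 11.8 CPM (counts per 1000000) in A965 and 611 CPM in A963. The level of Y-linked genes ran the other way, at 79.5 CPM in A965 and 6.46 CPM in A963. The part of this difference in the comparisons of A965 with A963 was not tested. Cells were sorted into lineage gates by marker genes, none of them a member, and 8667 cells fell in 12 gates of at least 50 cells. The gates are named for their markers, so that a GMP gate holds cells like granulocyte-monocyte progenitors (GMPs), with Mpo, Ctsg and Elane leading. The 10 genes leading each gate by fold included 2 to 7 of its own markers, which is no separate support because cells were gated by those markers. A further 1824 cells met no gate. Levels are CPM of pooled counts, and since 3' counts depend on each gene's own transcript end, levels are compared between cells and not between genes.

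The replication genes stood highest in erythroid cells and lowest in late neutrophils. Their summed level was 7546 CPM in the later erythroid gate (298 cells with globin markers) and 5495 CPM in the early erythroid gate (447 cells, Klf1 and Car1 markers). It was 3865 CPM in the GMP gate, 3812 CPM in the megakaryocyte gate, 3732 CPM in the lymphoid gate, 3339 CPM in the monocyte gate and 3299.6 CPM in the basophil and mast gate. The stem and multipotent gate had 2977 CPM, the dendritic gate 2891 CPM, the neutrophil gate 2875 CPM, the macrophage gate 2774 CPM and the late neutrophil gate 857 CPM. The place of the neutrophil gate depended on the scaling: under median-of-ratios scaling it had 4357, above the GMP gate at 3510.3, and the late neutrophil gate had 1440.4 and stayed lowest. Of the 38 genes, 30 had their highest level in the later erythroid gate, where 9.97% of the 8273 genes at 20 CPM in any gate did. The late neutrophil gate held the lowest level of 36 of the 38, against 43.2% of all genes.

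**Figure D1:**
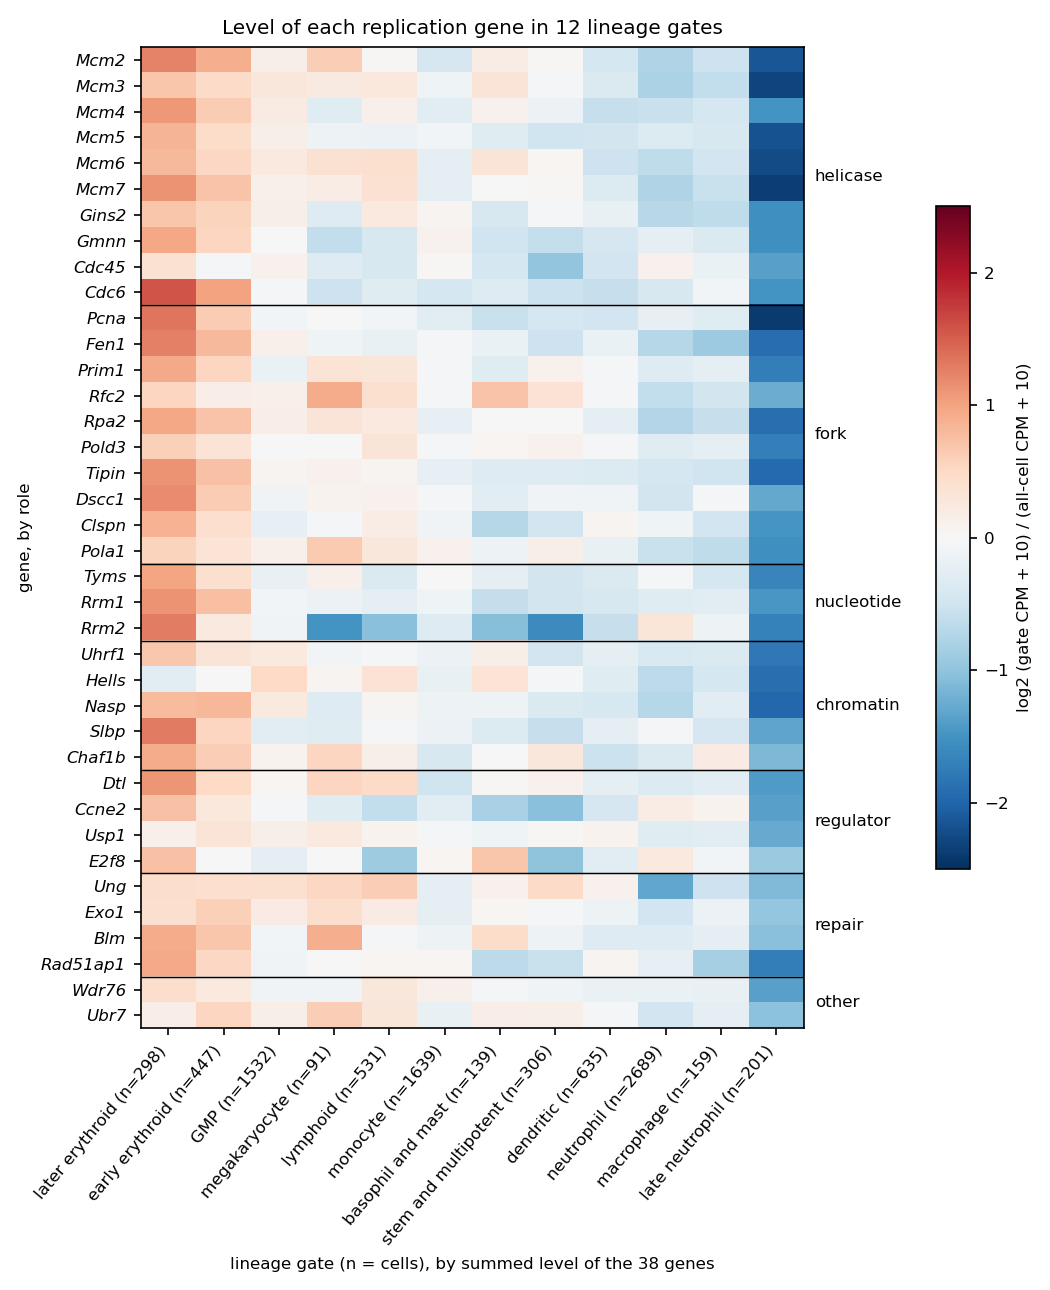
Level of each of the 38 genes (vertical, grouped by role) in the 12 lineage gates (horizontal, with cells per gate), as log2 of the gate's CPM over the CPM of all cells, with 10 CPM added to both. The later erythroid gate is the highest for 30 genes and the late neutrophil gate the lowest for 36, while Rrm2 is raised in the neutrophil gate (270.5 CPM) and Ung is at 1.57 CPM there.

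Per cell, at equal depth, the erythroid gates were again highest and the late neutrophil gate lowest, while gates between them changed places. Each cell was thinned to 8800 counts, and its counts of the 38 genes were summed. The median cell had 67 such counts in the later erythroid gate (quartiles 57 and 78), 47 in the early erythroid gate (35 and 60) and 34 in the GMP gate (24 and 43). Medians were 31 in the megakaryocyte, 28 in the lymphoid, 25 in both the neutrophil and the monocyte, 24 in the basophil and mast and 17 in both the dendritic and the macrophage gate. The neutrophil gate, below the basophil and mast, stem and multipotent and dendritic gates by CPM, thus stood above them by this median. The stem and multipotent gate had a median of 19 (9 and 36), and the late neutrophil gate a median of 3 (1 and 5). Cells with at least 8 of these counts made up 99.7% of the later erythroid gate (95% interval 98.1 to 100.0%), 99.3% of the GMP gate (98.8 to 99.7%) and 81.0% of the stem and multipotent gate (76.2 to 85.3%). In the late neutrophil gate, used here as the background class, the share was 20.4% (15.1 to 26.6%). Unthinned median depths were 33197 counts in the later erythroid gate and 16665 in the late neutrophil gate. The dendritic gate had the lowest share next to it with the macrophage gate, at 71.2% (67.5 to 74.7%) and 71.1% (63.4 to 78.0%).

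Among the helicase genes, all 6 MCM subunits were highest in later erythroid cells and lowest in late neutrophils. Mcm5 had 511 CPM in the later erythroid gate, 387 in the early erythroid gate, 313 in the GMP gate, 197 in the stem and multipotent gate and 54.4 in the late neutrophil gate. Mcm2 had 216 CPM in the later erythroid gate and 11.8 CPM in the late neutrophil gate, and Mcm3, Mcm4, Mcm6 and Mcm7 ran between 176 and 401 CPM in the first and between 17.4 and 27.1 CPM in the second. The MCM subunits differed in the stem and multipotent gate, where Mcm3 at 122 CPM and Mcm6 at 152 CPM were close to their levels over all cells (124 and 146 CPM), while Mcm5 at 197 CPM was below its 280.5 CPM. Cdc6, the ATPase that loads the helicase, had 121 CPM in later erythroid cells, 78.8 in early erythroid cells and 20.5 to 32.5 CPM in the GMP, monocyte, neutrophil, megakaryocyte, lymphoid and stem and multipotent gates. Cdc45, which converts the loaded ring into a working helicase, was flatter, with 84.95 CPM in later erythroid, 68.6 in GMP, 67.8 in neutrophil and 26.9 in stem and multipotent cells. Gmnn, the inhibitor that prevents a second loading of the helicase, reached 349.7 CPM in later erythroid cells and 189 CPM in monocyte cells. Gins2, a subunit of the GINS complex, had 113 CPM in later erythroid and 37.4 CPM in neutrophil cells.

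Of the fork genes, Pcna spanned 999 CPM (979.9 to 1018) in the later erythroid gate and 66.2 CPM (58.2 to 75.01) in the late neutrophil gate. A Pcna count was seen in 99.7% of thinned later erythroid cells and in 20.4% of thinned late neutrophil cells. Fen1, the flap nuclease of Okazaki fragments, had 188 CPM in the later erythroid gate, 40.4 in the neutrophil gate and 12.3 in the late neutrophil gate. Dscc1, part of a clamp loader that serves cohesion, had 50.8 CPM in later erythroid cells and 4 counts (1.07 CPM, 0.292 to 2.75) in late neutrophil cells. Rfc2, a subunit of the PCNA clamp loader, departed from that order. It had its highest level in megakaryocyte cells (238 CPM), followed by basophil and mast cells (205 CPM), ahead of 181 CPM in later erythroid cells. Pola1, the catalytic subunit of the priming polymerase, had 92.7 CPM in megakaryocyte and 86.1 CPM in later erythroid cells. Prim1, Rpa2, Pold3, Tipin and Clspn followed the common order at their ends, highest in later erythroid and lowest in late neutrophil cells.

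Of the nucleotide supply genes, Rrm2, the S phase subunit of ribonucleotide reductase, had 544 CPM in later erythroid cells and its second highest level in the neutrophil gate (270.5 CPM, 266 to 274), above early erythroid (260.05 CPM) and GMP cells (204 CPM). The stem and multipotent gate had 65.5 CPM and the lymphoid gate 101 CPM. Rrm1, the larger subunit of the same enzyme, was not raised in that way, with 98.3 CPM in neutrophil cells, 117 in GMP, 102 in lymphoid and 86.7 in stem and multipotent cells. Tyms, thymidylate synthase, had 149 CPM in neutrophil and 132 CPM in GMP cells.

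The chromatin genes split as well. Slbp, which binds the end of histone messages, had 413 CPM in later erythroid and 157 CPM in neutrophil and lymphoid cells. Nasp, a histone chaperone, had 294 CPM in the early and 285 CPM in the later erythroid gate. Hells, a chromatin remodeller, was highest in GMP cells (90.4 CPM), followed by lymphoid (81.5 CPM) and basophil and mast cells (79.6 CPM), with 49.1 CPM in later erythroid cells. Uhrf1, which carries DNA methylation through replication, had 116 CPM in later erythroid and 83.2 CPM in GMP cells, and Chaf1b, of the CAF-1 histone chaperone, 68.8 and 33.9 CPM there.

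Among regulators and repair genes, E2f8, a repressive E2F that acts late in S phase, had 89.8 CPM in later erythroid, 86.3 in basophil and mast and 61.3 in neutrophil cells. Its lowest levels, 19.7 CPM (16.3 to 23.5) in stem and multipotent, 21.4 CPM (17.0 to 26.7) in late neutrophil and 22.4 CPM (19.6 to 25.4) in lymphoid cells, were not told apart by counting error. Ccne2, cyclin E2, had 53.3 CPM in later erythroid, 33.5 in neutrophil and 8.52 in stem and multipotent cells. Dtl, an adaptor of the ubiquitin ligase that clears licensing proteins, had 105 CPM in later erythroid and 28.3 CPM in monocyte cells. Usp1, a deubiquitinase that acts on PCNA, had the flattest profile by the ratio of later erythroid (123 CPM) to late neutrophil (41.0 CPM) levels. Ung, the uracil glycosylase that removes uracil from DNA, was highest in lymphoid cells (33.8 CPM, 30.4 to 37.5), with 31.1 CPM in megakaryocyte, 29.99 in stem and multipotent, 28.9 in later erythroid and 27.8 in GMP cells. It had 102 counts among 2689 neutrophil cells (1.57 CPM, 1.28 to 1.90), and 1.12% of thinned neutrophil cells held a count of it, against 19.96% of thinned lymphoid cells. Exo1, Blm and Rad51ap1, which act in recombination repair, had 23.5, 59.9 and 111 CPM in later erythroid cells. Wdr76 and Ubr7, the remaining members, had 52.5 and 37.6 CPM in later erythroid cells, and Ubr7 was higher in megakaryocyte cells (54.6 CPM).

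Across the 12 gates, pairs of members had a median Pearson correlation of 0.84 (703 pairs, as a description, since gates share the library). Each member was also set against the sum of the others. The profiles least like the rest were those of E2f8 (r = 0.55), Rrm2 (0.60) and Ung (0.67), and the closest were Tipin (0.99) and Mcm5 (0.99). Over single cells within a gate, pairs of members had a median correlation of 0.058 in the GMP gate and 0.089 in the early erythroid gate.

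Of 58 other replication genes, 33 were highest in later erythroid and 46 lowest in late neutrophil cells. Some departed from this: Asf1b, Cdc25a, Cdk2, E2f7 and Rnaseh2c were highest in neutrophil cells, and Pold4 (14.5 CPM) and Mcmbp (17.4 CPM) were lowest in later erythroid cells. By level over all cells the 58 were led by Dut, which clears dUTP (911 CPM in early erythroid, 39.1 in late neutrophil cells), Rnaseh2c (353 CPM in neutrophil cells), Lig1, the DNA ligase of the fork (403 CPM in later erythroid cells), Tk1 (442 CPM in later erythroid cells) and Rpa3 (254 CPM in later erythroid cells). Of 24 G2/M genes, 18 were highest in later erythroid and 14 lowest in late neutrophil cells. Of 12 genes that slow the cycle, 3 and 2 were. Over single cells, the genes outside these lists most like the summed members were Dek, Ptma, Stmn1, Tuba1b, Hnrnpab, Hsp90aa1, Pclaf, Anp32b, Ran and Hmgb1, with r between 0.57 (Dek) and 0.46 (Hmgb1) over 10528 thinned cells. Pclaf codes for a PCNA-binding protein. The lowest value over all cells, −0.46, was that of Plbd1. Within single gates the leading genes differed, with Actb first in the GMP gate (0.31) and Cd24a first in the early erythroid gate (0.57). Pclaf was near the top in both (0.30 and 0.39).

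Within a lineage, members peaked at different points relative to mitotic genes. Cells of the GMP gate were binned by their counts of 24 G2/M genes. The summed members were 3469 CPM in the 52 cells with 0 to 1 G2/M counts, 4124 CPM in 330 cells with 2 to 7, 4074 CPM in 893 cells with 8 to 31, 2958 CPM in 236 cells with 32 to 63 and 2711 CPM in 21 cells with 64 or more. Ung had 66.7, 59.9, 23.7, 1.51 and 1.49 CPM over these bins in the same order, and Cdc6 had 53.0, 40.7, 35.8, 10.3 and 4.48 CPM. Both were highest in the lowest bin. Ccne2 had 15.0, 28.1, 32.5, 9.49 and 7.46 CPM, and Pcna 319, 400.2, 401, 242 and 115 CPM. The opposite profile was that of Rrm1, with 89.1, 95.2, 120.2, 133 and 184 CPM, and of E2f8, with 23.7, 30.01, 41.8, 47.3 and 95.5 CPM. Rrm2 had 57.4 CPM in the lowest bin and between 211 and 229.8 CPM in the last 3. Of the 38 members, 4 peaked in the lowest bin, 15 at 2 to 7, 12 at 8 to 31, 0 at 32 to 63 and 7 in the highest. Those 7 were Rrm1, Rrm2, E2f8, Usp1, Pola1, Blm and Wdr76. Of these, Rrm1, E2f8 and Blm rose at each step. Wdr76 did not, with 38.3 CPM at 2 to 7, 26.2 CPM at 32 to 63 and 41.8 CPM in the highest bin of 21 cells. Usp1 had 126.6, 129.0, 124.3, 118.8 and 171.6 CPM over the bins, and Pola1 53.0, 61.0, 58.8, 66.0 and 101.4 CPM. Rrm2 fell from 222.0 CPM at 8 to 31 to 210.7 CPM at 32 to 63. The share of all genes peaking in each bin is not given, so the peak counts describe the members only. Ung and Cdc6 rest on few counts in the highest bin.

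**Figure D2:**
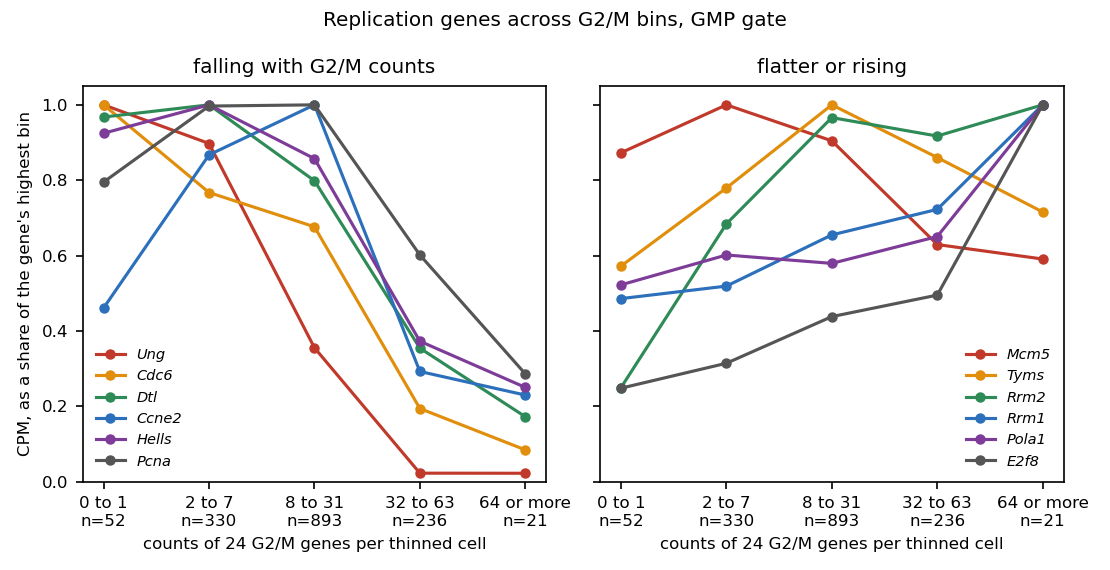
Levels of 12 members in cells of the GMP gate binned by counts of 24 G2/M genes per thinned cell (horizontal, with cells per bin), each as a share of the gene's own highest bin (vertical). Ung and Cdc6 are highest at 0 to 1 counts and fall to 1.49 and 4.48 CPM in the last bin of 21 cells, while Rrm1, Pola1 and E2f8 are highest there.

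Other lineages differed in this order. In the monocyte gate the summed members were 1760.4, 3619, 4609, 2803 and 1774 CPM over the same bins, and 29 of 38 members peaked at 8 to 31 counts. In the neutrophil gate they were 969, 2988, 3418, 2353 and 2014 CPM. In the early erythroid gate they were 2306, 3876, 5483, 5468 and 7174 CPM, with 28 of 38 members highest in the last bin of 25 cells; the first bin there held 13 cells and the second 21. For these gates, too, the share of all genes peaking in each bin is not given, so the peak counts describe the members only. Median depth moved with the bins. It lay between 12749 counts in the first and 52370 in the fourth bin of the early erythroid gate. In the GMP gate it lay between 28513 in the last and 44310 in the fourth bin. The part of depth in these profiles was not tested.

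Between the large tags, the replication genes were lower in A965. Their summed level was 3453 CPM in A965 against 4052 CPM in A963, a ratio of 0.852 (0.849 to 0.855). Of the 37 members at 20 CPM, 36 were lower in A965, as were 58.6% of all 5630 genes at that level. The median log2 ratio was −0.21, against −0.05 over all genes. None of the 37 passed 1.5-fold with 10 CPM added, as 4.99% of all genes did. The members with the lowest log2 ratios were Cdc6, with 28.3 CPM in A965 and 43.2 CPM in A963, Mcm2, with 75.2 CPM in A965 and 103 CPM in A963, and Dscc1, with 13.96 CPM in A965 and 21.2 CPM in A963. Pcna reached 347 CPM in A965 and 448 CPM in A963, and Tipin 113 CPM in A965 and 147 CPM in A963. At the other end, Rrm2 was the only member higher in A965, with 225 CPM in A965 and 208 CPM in A963, followed by Hells, Cdc45, E2f8 and Gmnn at ratios of 0.980, 0.976, 0.928 and 0.934. All 6 MCM genes were lower in A965, with ratios between 0.732 for Mcm2 and 0.890 for Mcm3. Mcm5 stood at 267 CPM in A965 and 300.3 CPM in A963, and Mcm6 at 135 CPM in A965 and 162 CPM in A963. The median thinned cell held 27 member counts in A965 and 31 in A963.

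The erythroid gates, where these genes are highest, held 2.86% of A965 cells (159 cells, 2.43 to 3.33%) and 12.2% of A963 cells (574 cells, 11.3 to 13.1%). Without them, the summed members were 3353 CPM in A965 against 3464 CPM in A963, a ratio of 0.968 (0.964 to 0.972), and the median log2 ratio was −0.06, against −0.02 over all genes. Of 36 members at 20 CPM, 29 were then lower in A965 (80.6%), against 56.9% of all genes. Rrm2 stood at 221 CPM in A965 against 167 CPM in A963 in those cells, a ratio of 1.32 (1.30 to 1.35). This split by gate was chosen after the values were seen.

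Within lineages, the tags differed in both directions. In the GMP gate the summed members were higher in A965, at 4064 CPM in 874 A965 cells and 3481 CPM in 619 A963 cells (ratio 1.17, 1.16 to 1.18). There, 31 of 36 members were higher in A965, as were 63% of all genes. In the stem and multipotent gate they were 3072 CPM in 146 A965 cells and 2856 CPM in 160 A963 cells (ratio 1.08, 1.04 to 1.11), with 24 of 34 members higher (50.4% of all genes). The neutrophil gate was near even, with 2894 CPM in 1462 A965 cells and 2842 CPM in 1197 A963 cells (ratio 1.02, 1.01 to 1.03). The sum and the median differ in sign there: 19 of 35 members were lower in A965 (48% of all genes), with a median log2 ratio of −0.02. The early erythroid gate had 5349.9 CPM in 108 A965 cells and 5535 CPM in 337 A963 cells (ratio 0.967, 0.954 to 0.980), with 26 of 38 members lower (44.9% of all genes). The summed members were also lower in A965 in 3 more gates. The lymphoid gate had 3503 CPM in 256 A965 cells and 4048 CPM in 270 A963 cells (ratio 0.865, 0.849 to 0.883), with 33 of 37 members lower (60.7% of all genes). The monocyte gate had 3149 CPM in 924 A965 cells and 3638 CPM in 612 A963 cells (ratio 0.866, 0.857 to 0.875), with 32 of 35 lower (58.4%). The dendritic gate had 2646 CPM in 347 A965 cells and 3306 CPM in 282 A963 cells (ratio 0.8003, 0.782 to 0.819), with 33 of 36 lower (64%). Over all 7 gates, 1 member passed 1.5-fold in any gate, Rrm2 in the GMP gate, where 1.66% of all genes did. No member passed it in the other 6, where the share of all genes was 3.78% in the stem and multipotent, 2.75% in the lymphoid, 0.586% in the early erythroid, 2.63% in the neutrophil, 4.25% in the monocyte and 3.21% in the dendritic gate.

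**Figure D3:**
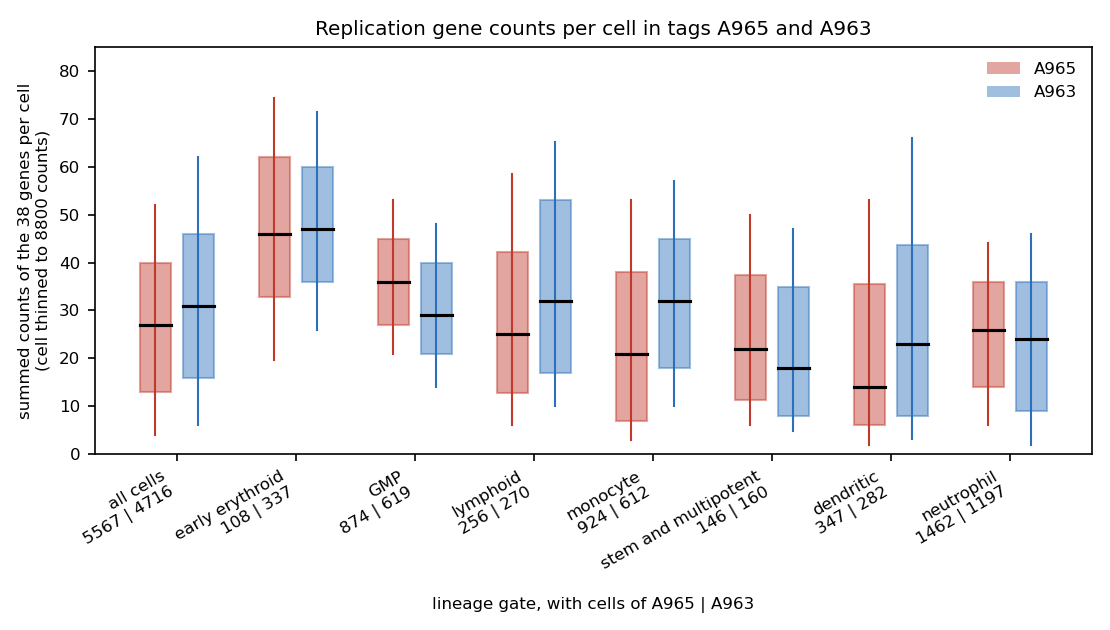
Summed counts of the 38 genes per cell, each cell thinned to 8800 counts (vertical), in A965 (left of each pair) and A963 over all cells and the 7 gates with at least 100 cells of both (horizontal). Black lines are medians, boxes quartiles and thin lines the 10th to 90th percentiles; the A965 median is 36 and the A963 median 29 in the GMP gate, and 21 and 32 in the monocyte gate.

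In the GMP gate, Rrm2 stood apart from its partner subunit. Its level was 242 CPM in A965 against 129 CPM in A963, a ratio of 1.88 (1.80 to 1.96), and a count was seen in 80.1% of thinned A965 cells and 52.0% of thinned A963 cells. In unthinned cells the shares were 95.1% in A965 and 76.7% in A963, at median depths of 47129.5 and 31366 counts. In thinned late neutrophil cells the share over all tags was 18.4%. Rrm1 had a count in 61.3% of thinned A965 cells and 48.0% of thinned A963 cells of the GMP gate. The next largest ratios were those of Uhrf1 (91.2 CPM in A965 and 68.1 CPM in A963), Fen1 (87.4 CPM in A965 and 67.0 CPM in A963), Gmnn (186 CPM in A965 and 147 CPM in A963) and Clspn (59.5 CPM in A965 and 45.9 CPM in A963). Ung was the lowest, with 25.5 CPM in A965 and 31.7 CPM in A963 (ratio 0.805, 0.731 to 0.887), and Usp1, Rfc2, Prim1 and Dtl lay between ratios of 0.976 and 0.998. Ratios of the MCM genes lay between 1.12 (Mcm6) and 1.27 (Mcm4). Among other genes of the gate, 23 of 24 G2/M genes were higher in A965 (median log2 ratio 0.19), as were 39 of 47 other replication genes (0.18).

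Markers of neighbouring lineages also differed between the tags. In the GMP gate the 7 neutrophil markers summed to 7197 CPM in A965 and 6174 CPM in A963, with 6 of 7 higher in A965 and none at 0. The 8 monocyte markers summed to 4071 CPM in A965 and 5155 CPM in A963, with 6 of 8 lower in A965. Per thinned cell, the neutrophil markers had quartiles of 6 and 69.75 counts in A965 and 5 and 25 counts in A963. When the gate was split at its median neutrophil marker count, the summed member ratio was 1.17 in the lower part and 1.15 in the upper part. Rrm2 reached 176 CPM in A965 and 100.1 CPM in A963 in the lower part (ratio 1.76, 1.65 to 1.87), and 317 CPM in A965 and 172 CPM in A963 in the upper part (ratio 1.84, 1.74 to 1.95). By G2/M counts, the Rrm2 ratio was 1.596 in cells with 2 to 7, 1.61 in cells with 8 to 31 and 2.71 in cells with 32 to 63. Both splits were chosen after the values were seen, and the part of these markers in the member difference was not tested.

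**Figure D4:**
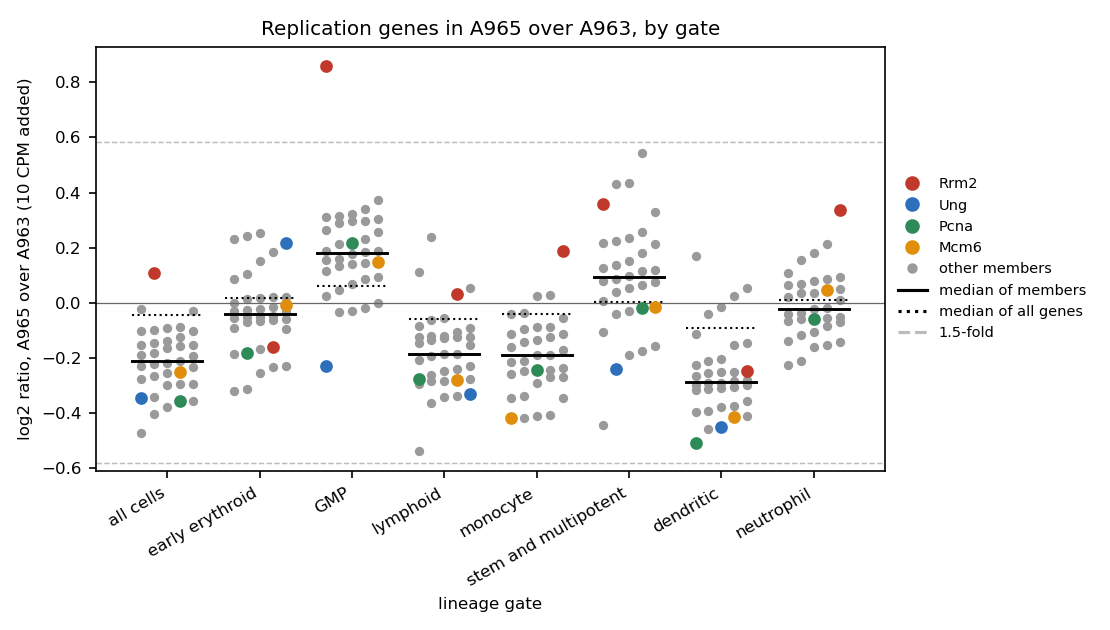
Log2 ratio of A965 over A963 (vertical, 10 CPM added) for each member at 20 CPM, over all cells and in 7 gates (horizontal); solid lines are the members' medians, dotted lines the medians of all genes at 20 CPM, and dashed lines 1.5-fold. Rrm2 in the GMP gate, at 0.86, is the only point beyond 1.5-fold, and the members' medians are 0.18 in the GMP gate and −0.29 in the dendritic gate.

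In the monocyte gate, the members lowest in A965 were Mcm6 (106 CPM in A965 and 146 CPM in A963), Uhrf1 (52.7 CPM in A965 and 73.8 CPM in A963), Hells (45.8 CPM in A965 and 64.3 CPM in A963), Dtl (23.8 CPM in A965 and 34.9 CPM in A963) and Usp1 (98.6 CPM in A965 and 128 CPM in A963). Rrm2 at 180.0 CPM in A965 and 157 CPM in A963, Gmnn and Rad51ap1 were higher in A965, and Ubr7 and Rrm1 came next. The 6 MCM genes ranged between 0.730 (Mcm6) and 0.955 (Mcm4). The share of cells with at least 8 member counts was 72.5% in A965 (69.5 to 75.4%) and 93.3% in A963 (91.0 to 95.1%). The 24 G2/M genes were about even, with 3752 CPM in A965 and 3803 CPM in A963. The 7 GMP markers summed to 4591 CPM in A965 and 5744 CPM in A963, with 5 of 7 lower in A965 and none at 0, and a median thinned cell had 12 of their counts in A965 and 40.5 in A963. When the gate was split at its median GMP marker count, the summed members were 2523 CPM in A965 and 3393 CPM in A963 in the lower part (ratio 0.744, 0.729 to 0.759). In the upper part they were 3692 CPM in A965 and 3722 CPM in A963 (ratio 0.992, 0.979 to 1.005). The median thinned cell of the lower part had 10 member counts in A965 and 27 in A963, and that of the upper part 32 in A965 and 33 in A963. This split, too, was chosen after the values were seen.

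In the dendritic gate the lowest log2 ratio was that of Pcna, with 236 CPM in A965 and 341 CPM in A963 (ratio 0.693, 0.644 to 0.745), followed by Pold3, Ung, Mcm6 and Usp1. Ubr7, Pola1 and Wdr76 were higher in A965, at ratios of 1.17, 1.04 and 1.02, and Rad51ap1 and Gmnn came next. MCM ratios lay between 0.728 (Mcm6) and 0.858 (Mcm5). In cells with a count of Siglech, a plasmacytoid dendritic marker, the summed members were 3119.6 CPM in 159 A965 cells and 4057 CPM in 175 A963 cells (ratio 0.769, 0.747 to 0.792). In cells without one they were 2284 CPM in 188 A965 cells and 2305 CPM in 107 A963 cells (ratio 0.991, 0.954 to 1.029). The split by Siglech was chosen after the values were seen. The 24 G2/M genes also were lower in A965, 19 of 24 of them (median log2 ratio −0.18). Median-of-ratios scaling shifted every ratio in this gate by 0.11 on the log2 scale, and by less than 0.1 in the other 6.

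In the other gates, different members led. In the lymphoid gate, Exo1 had the lowest log2 ratio, with 14.2 CPM in A965 and 25.2 CPM in A963 (ratio 0.563, 0.421 to 0.751). It was followed by Dtl, Rad51ap1, Rpa2 and Ung, and Wdr76 the highest, with 50.4 CPM in A965 and 41.2 CPM in A963, followed by Blm, Ubr7, Rrm2 and Tyms. For the MCM genes, ratios lay between 0.814 (Mcm6) and 0.925 (Mcm7). In the stem and multipotent gate, Prim1, the primase, was highest, with 95.98 CPM in A965 and 62.7 CPM in A963 (ratio 1.53, 1.27 to 1.85). Ubr7, Nasp, Rrm2 and Pola1 followed, and Rad51ap1 was lowest, with 27.0 CPM in A965 and 40.4 CPM in A963 (ratio 0.668, 0.5004 to 0.890), with Ung, Hells, Rfc2 and Fen1 above it. Here the MCM genes had ratios between 0.989 (Mcm6) and 1.23 (Mcm4). Neutrophil markers had lower sums in A965 in the stem and multipotent gate, where the summed members were higher. Their sums were also lower in the lymphoid and dendritic gates, where the summed members were lower, and the median cell differed little. In the stem and multipotent gate these markers summed to 1021 CPM in A965 and 3449 CPM in A963, with 7 of 7 lower in A965 and a median thinned cell at 6 counts in A965 and 7 in A963. Their sums were 1530.3 CPM in A965 and 3661 CPM in A963 in the lymphoid gate, with 7 of 7 lower and a median of 6 counts in both tags. In the dendritic gate they were 3333 CPM in A965 and 5149.6 CPM in A963, with 6 of 7 lower and a median of 6 counts in A965 and 7 in A963. None of these markers was at 0 in any of the 3 gates. They went the other way in the early erythroid gate, with 2010 CPM in A965 and 1705 CPM in A963 and 6 of 7 higher in A965. The 7 later erythroid markers summed there to 7297 CPM in A965 and 9502 CPM in A963, with 5 of 7 lower in A965. A median thinned cell of that gate had 20 of their counts in A965 and 31 in A963. In the early erythroid gate, Wdr76, Chaf1b, E2f8, Ung and Dtl led in A965 at ratios between 1.16 and 1.24, and Ccne2 was lowest, with 28.6 CPM in A965 and 38.2 CPM in A963, ahead of Ubr7, Dscc1, Cdc6 and Pola1. The MCM subunits ranged between 0.955 (Mcm2) and 1.07 (Mcm4). In the neutrophil gate, Rrm2 again had the highest ratio, with 292 CPM in A965 and 229 CPM in A963 (1.27, 1.23 to 1.32), followed by Chaf1b, Rrm1, Gmnn and Mcm3. Wdr76 had the lowest, with 28.7 CPM in A965 and 35.4 CPM in A963, ahead of Mcm2, Tipin, Ccne2 and Dtl. MCM subunits had ratios between 0.838 (Mcm2) and 1.09 (Mcm3). There 21 of 24 G2/M genes were higher in A965. The GMP markers summed to 3248 CPM in A965 and 1939 CPM in A963, with 6 of 7 higher in A965. A median thinned cell had 13 of their counts in A965 and 7 in A963. Late neutrophil markers summed to 211228 CPM in A965 and 229519 CPM in A963, with 4 of 7 lower in A965. Split at the median count of the late neutrophil markers, the summed member ratio was 1.04 in the lower part and 0.858 in the upper part. That split was also chosen after the values were seen. The part that the marker differences played in these ratios was not tested.

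Of the 50 other replication genes at 20 CPM over all cells, 37 were lower in A965. The lowest were Orc2, of the origin recognition complex (26.7 CPM in A965 and 46.6 CPM in A963), Ccne1 (26.8 CPM in A965 and 46.6 CPM in A963), Pold2, Pole3 and Dut, and the first pair passed 1.5-fold. The highest were Pold4 (72.4 CPM in A965 and 48.5 CPM in A963), Samhd1, a dNTP hydrolase (77.6 CPM in A965 and 54.9 CPM in A963), E2f2, Cdc25a and Mcmbp.

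Among the small tags, the replication genes were lowest in A964. Summed levels were 3811 CPM in A961 (3726 to 3899), 3771 CPM in A962 (3703 to 3840.3) and 3463 CPM in A964 (3388 to 3539). The ratio was 1.01 for A961 over A962 (0.982 to 1.040), 1.10 for A961 over A964 (1.07 to 1.14) and 1.09 for A962 over A964 (1.06 to 1.12), and these pairs share tags. Of 36 members at 20 CPM, 30 were higher in A961 than in A964 (54.3% of all genes), with a median log2 ratio of 0.19 against 0.03 over all genes. In A962, 25 of 36 were higher than in A964 (46.1% of all genes; median 0.12 against −0.03). Between A961 and A962, 21 of 37 were higher in A961 (58.6% of all genes; median 0.01 against 0.06). Median sums per thinned cell were 29.5 in A961, 33.5 in A962 and 26 in A964. Past 1.5-fold with 10 CPM added were Ccne2 (39.2 CPM in A961 and 21.9 CPM in A962) and Ung (16.8 CPM in A961 and 32.3 CPM in A962) for A961 over A962, where 7.83% of all genes were. For A961 over A964 it was Rfc2 (145 CPM in A961 and 92.4 CPM in A964, with 8.95% of all genes), and for A962 over A964 it was Ung (32.3 CPM in A962 and 10.6 CPM in A964, with 10.1% of all genes). Next in size were Ubr7, Rad51ap1, Dscc1 and Rrm1, higher in A961 than in A962, and Hells, Rrm2, Wdr76 and Nasp, lower. Ubr7, Fen1, Rad51ap1 and Dscc1 were higher in A961 than in A964, and Rrm2, Nasp, Pold3, Pola1 and Gmnn lower. Rfc2, Fen1, Blm and Wdr76 were higher in A962 than in A964, and Rrm1, E2f8, Ccne2, Gmnn and Pold3 lower. Of the MCM genes, Mcm6 differed most between A961 and A964, with 174 CPM in A961, 158 CPM in A962 and 129 CPM in A964 (A961 over A964 1.35, 1.15 to 1.58). Mcm5 had 297 CPM in A961, 297 CPM in A962 and 269 CPM in A964. The GMP gate held 30 of the 104 A962 cells, 3 of the 68 A961 cells and 6 of the 73 A964 cells. The monocyte gate held 42 A961, 21 A962 and 40 A964 cells. The later erythroid gate, where the members are highest, held 8 A962 cells, 1 A961 cell and 1 A964 cell. The early erythroid gate held 2 A964 cells and none of A961 or A962. The part of these gates in the summed levels was not tested. Within the monocyte gate the summed members were 3597 CPM in A961 (3489.7 to 3707), 3501 CPM in A962 (3343 to 3664) and 3431 CPM in A964 (3328 to 3535). The ratio was 1.03 for A961 over A962 (0.973 to 1.09), 1.049 for A961 over A964 (1.005 to 1.09) and 1.02 for A962 over A964 (0.966 to 1.08). In that gate 6 of 36 members passed 1.5-fold for A961 over A962 (23.8% of all genes), 5 of 35 for A961 over A964 (17.5%) and 8 of 36 for A962 over A964 (24.4%). The extremes were Ubr7 (59 counts in A961 and 4 in A962) and Exo1 (5 counts in A961 and 18 in A962). Each small tag lay above A965 in Xist and above A963 in the level of Y-linked genes. Xist and Y-linked levels were 486 and 39.2 CPM in A961, 409 and 21.0 CPM in A962, and 59.7 and 86.0 CPM in A964. Whether a small tag mixes cells of both sexes was not tested, so these tags may not be single populations. A962 held 104 cells after 100 were loaded, and how many cells of the small tags carry a tag other than their own is not known.

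**Figure D5:**
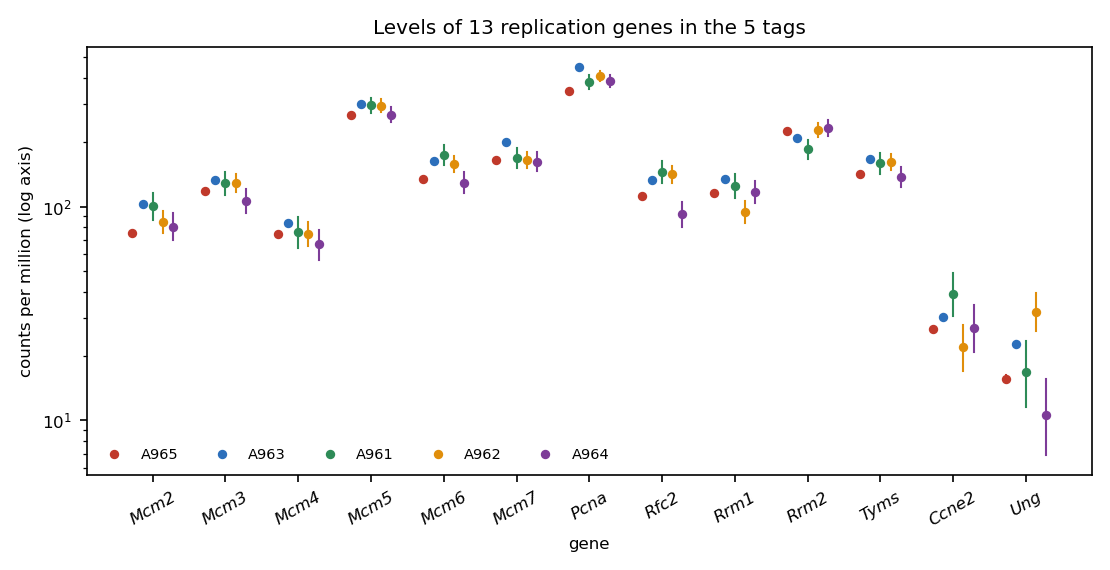
Levels of 13 members (horizontal) in CPM on a log axis (vertical) over all cells of each tag, with exact 95% counting intervals as bars. Ung runs between 10.6 CPM in A964 and 32.3 CPM in A962, while Mcm5 stays between 267 CPM in A965 and 300.3 CPM in A963.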

How the data were processed

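The authors deposited 1 table of unnormalised counts, whole numbers with a line per gene, and each cell name starts with its tag, per the file headers. Cell barcodes and molecular identifiers were read, per the labels. Not given in the sources used here are the aligner, the counting tool and whether a count stands for a molecule or a read. The submitters' processing notes name GRCm38, R 4.2.1 and Seurat 4.2.0, with no role for each.

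The table held 25661 genes and 10731 cells. Of these, 190 cells named doublets by the authors and 6 with no tag were left out, and no cell barcode was repeated. A further 7 cells fell under 500 genes or over 20% mitochondrial counts. Cell totals ran from 8822 to 140994, and all were thinned to 8800 counts for values per cell. Scrublet (scanpy 1.11.5) called 223 of the remaining cells doublets, which were kept and left out only in an alternative.

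A gate's score was the mean z-score (limited to −3 to 5) of its markers' log counts per 10000. A cell joined its best gate at a score above 0.5, a lead above 0.2 and at least 3 markers with a count. These limits were set after the data were seen. The B cell (35 cells) and T and NK (2 cells) gates were under the 50 cells needed and are not shown. Stricter limits (lead 0.4) kept 7319 cells in the shown gates and looser ones (score 0.3, lead 0.1) 9343.

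Counts were pooled over cells as CPM with exact Poisson intervals, and ratios have exact conditional binomial intervals. Log2 ratios had 10 CPM added, and counts past 1.5-fold used genes at 20 CPM or more in either tag. Shares have Clopper-Pearson intervals. All members and the genes of highest and lowest level or log2 ratio were named by a rule. The members, lists and comparisons were chosen with earlier results of these data known. The ratio script was tested on simulated data with known changes. Promoter coordinates and sequences are RefSeq's (GRCm38.p6).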

Additional observations from a re-analysis of the deposited data

Results flagged for a closer look

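The difference between A965 and A963 in the summed replication genes ran in opposite directions in different gates. The A965 over A963 ratio was 1.08 in the stem and multipotent gate, 1.17 in the GMP gate and 1.02 in the neutrophil gate. It was 0.865 in the lymphoid gate, 0.967 in the early erythroid gate, 0.866 in the monocyte gate and 0.8003 in the dendritic gate. With 1 sample of each tag, the difference between gates was not tested.

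The 190 cells that the authors named doublets entered no comparison, and their members summed to 3586 CPM, between 3453 CPM in A965 and 4052 CPM in A963.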

How the results depend on the processing

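No paired analysis was possible because no tag had a replicate. The count of members highest in later erythroid cells (30) lay between 27 and 35 under 8 alternatives, and the count lower in A965 over all cells (36) between 34 and 37. The 1 member past 1.5-fold within gates became 4 with 1 CPM added, 3 with stricter gates and 2 without Scrublet doublets. That count became 10 when cells were thinned before pooling and 6 with the mean of per-cell CPM. Without the 3 members of highest level, Pcna, Mcm5 and Rrm2, it was 0. This had to follow, since the 1 member was Rrm2. The 4 cases past 1.5-fold among small tags became 10 with 1 CPM added, 13 with thinning, 8 with the mean of per-cell CPM and 12 in cells matched on Xist. The share of all genes past 1.5-fold under each alternative is not given, so these counts have no background. The later erythroid median of 67 member counts became 68.5 with stricter gates or without doublets, 66.9 by scaling and 48 without the top 3 members. The A965 minus A963 difference of −4 counts became −3.39 by scaling and −3 without the top 3.

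Median-of-ratios scaling put the neutrophil sum at 4357, against 2875 CPM, and the late neutrophil sum at 1440.4, against 857 CPM. Directions near 0 turned. The neutrophil median log2 ratio (−0.02) became 0.0363 under median-of-ratios scaling, 0.0367 with thinning, 0.0125 with stricter gates and 0.0295 with the mean of per-cell CPM. Its summed log2 ratio (0.03) became −0.00693 without the top 3 members and −0.22 above the median of late neutrophil markers, a split chosen after seeing the data. The early erythroid median log2 ratio (−0.04) became 0.00753 with thinning, and its difference in median counts (−1) became 2 without the top 3. The A961 over A962 median (0.01) became −0.0649 under median-of-ratios scaling, −0.0649 with thinning, −0.0583 with the mean of per-cell CPM and −0.0320 without doublets. The cause was not tested. Depth limits Dscc1 and Ung in late neutrophil cells, with 4 and 12 counts, and all single members in the small tags.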
